A study of Caenorhabditis elegans with 4 samples.

Results

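Closely spaced narrow LIN-13 peaks are the ChIP-seq peaks of the combined list that were narrower than 1500 bp and lay 1000 bp or less from the nearest other peak on the same chromosome. They were chosen by 2 measured values, the width of each peak and the gap between facing peak edges, and 649 of 3503 combined peaks (18.5%) met both limits. Their widths, spacing and positions are therefore descriptions and were given no test. The combined list presumably draws on the ChIP samples of the replicate lists, so overlap with those lists was not independent of the choice and was given no test either.

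Binding was profiled in second larval stage (L2) hermaphrodites of C. elegans strain OP49, which carries unc119(ed3) and the transgene wgIs49, a fusion of lin-13 with a TY1 EGFP FLAG tag beside unc119. Worms were grown at 20 degrees and fixed with 2% formaldehyde. The 2 ChIP samples, replicates 1 and 2, were collected with an antibody against GFP, and the 2 input samples were total chromatin of the same strain. All 4 samples share the genotype, including the bombarded transgene, and the genotype lists no mutation of the native lin-13 gene. Whole animals were used, so the peaks are not assigned to a cell type. The input samples' own values were not analysed here, and whether the ChIP replicates came from separate cultures is not stated. Read depth is unknown. Peaks were called with PeakSeq on WormBase WS180, and all positions are in that build.

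LIN-13 carries zinc fingers and belongs to the synMuv B group of chromatin regulators, which oppose vulval fates and include LIN-35, the worm retinoblastoma protein. It also works with HPL-2, a worm relative of heterochromatin protein HP1. A peak caller reports stretches of the genome where ChIP reads exceed control reads, and sets where each stretch starts and ends. How alike the replicate lists placed these limits was therefore followed pair by pair.

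Most of these peaks came in pairs. Chaining peaks through gaps of 1000 bp or less gave 326 runs that held at least 1 of the 649 peaks. Of these runs, 259 (79.4%) had 2 peaks, 49 (15.0%) had 3, 13 had 4, 2 had 5, 2 had 6 and 1 had 8. The runs of 2 peaks held 455 of the 649 peaks (70.1%) and had a median span of 2056 bp. Over all runs the median span was 2283 bp and the longest was 12881 bp. Narrow peaks alone made up 234 runs with 513 of the peaks, whereas 92 runs, with the other 136, also held a broad peak of 1500 bp or more.

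Gaps between neighbours were mostly smaller than the peaks beside them. The runs contained 418 neighbouring pairs with at least 1 narrow peak, with a median gap of 487.5 bp (quartiles 313.25 and 719.75 bp) and a median distance between midpoints of 1349.5 bp. In 324 pairs (77.5%) the gap was smaller than the wider peak of the pair. This was fixed by the limits for the 106 pairs with a broad peak of 1500 bp or more. The gaps started abruptly at 200 bp in the combined list and at 204 bp in each replicate list, and no list held a smaller one. The shortest gaps were the most frequent. In the combined list 107 gaps measured 200 to 299 bp, against 37 to 67 in each following step of 100 bp up to 1000 bp.

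**Figure D1:**
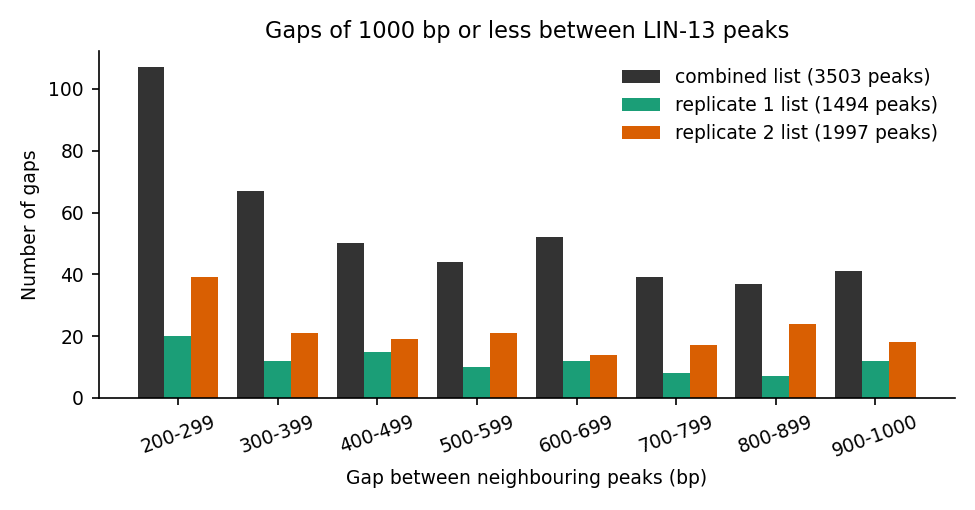
Number of gaps between neighbouring peaks, in steps of 100 bp, for gaps of 1000 bp or less, in the combined list and both replicate lists, with all peak widths included. The combined list has its highest bar, 107 gaps, at 200 to 299 bp, and no list has a gap under 200 bp.

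The closest pairs lay at that lower edge. The peaks I 871642 to 872139 and I 872340 to 873077 were 200 bp apart, with −log10 q, the strength of a peak derived from the authors' q-value, of 3.86 and 10.8. Also 200 bp apart were II 14609673 to 14610252 and II 14610453 to 14611101, with −log10 q of 3.81 and 3.66. The peaks II 2975329 to 2976279 and II 2976482 to 2977057 were 202 bp apart, with −log10 q of 4.24 and 7.82. In replicate 2, 1 peak touched both members of the first pair and another both members of the last pair, while replicate 1 had no peak at any of the 3 pairs and replicate 2 had none at the second.

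The limits of the choice cut through a continuous range. Just inside the gap limit were III 1080476 to 1080994 and its neighbour III 1079221 to 1079475, 1000 bp apart, with −log10 q of 56.97 and 5.92, and II 10033049 to 10033766, with a gap of 990 bp and −log10 q of 35.9. Just outside were III 8357963 to 8358546, V 8300939 to 8301549 and V 8302555 to 8302890, each with a gap of 1005 bp and with −log10 q of 12.98, 4.27 and 3.99. Just below the width limit were X 17630481 to 17631973 (1493 bp), IV 8586432 to 8587920 (1489 bp) and X 3127128 to 3128613 (1486 bp). Just above it, at 1509, 1510 and 1529 bp, were III 1926081 to 1927589, V 11615843 to 11617352 and III 8796709 to 8798237.

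The run with most peaks was III 1923331 to 1932649, with 8 peaks in 9319 bp, of which 7 met the width limit and 1, at 1509 bp, just missed it. In order along the chromosome the peaks had −log10 q of 21.5, 30.8, 38.2, 41.2, 7.93, 22.4, 14.4 and 5.31 in the combined list. Replicate 1 had 7 separate peaks there, with values of 10.3, 14.7, 19.5, 25.5, 6.04, 10.6 and 6.86. Replicate 2 also had 7 separate peaks, with values of 11.8, 22.2, 22.8, 18.0, 4.71, 6.86 and 7.07. Each of these lay on the corresponding one of the first 7 combined peaks, and the last and weakest peak was in neither replicate. The strongest of the 7 was the fourth in replicate 1 and the third in replicate 2, and the fifth was the weakest in both. The gaps between them were 251 to 801 bp in replicate 1 and 373 to 921 bp in replicate 2.

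**Figure D2:**
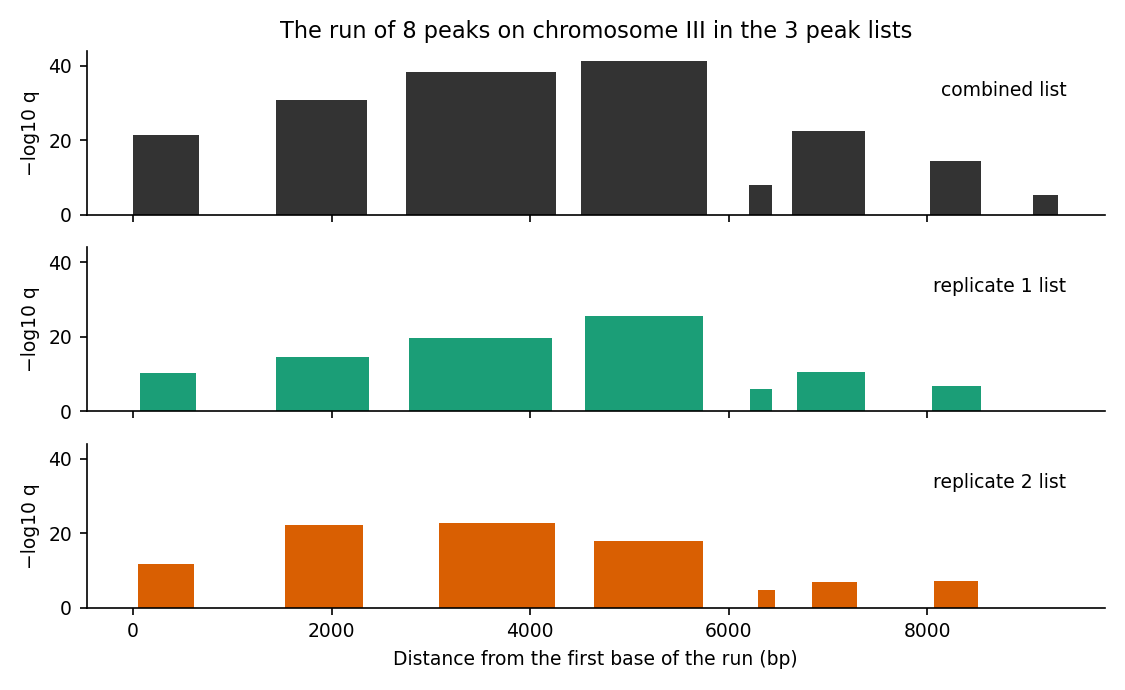
Peaks of the run on chromosome III in the combined list (top) and the lists of replicate 1 (middle) and replicate 2 (bottom), each drawn at its width against the distance in bp from the first base of the run, with −log10 q as height. The first 7 of 8 combined peaks each have 1 separate peak in both replicates, and the eighth has none.

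Other long runs were resolved less fully. In the run of 6 peaks at II 8478533 to 8487849, 2 peaks overlapped both replicates, 3 replicate 2 alone and 1 neither, and the strongest peak, itself broad, had −log10 q of 25.8 in the combined list, 5.25 in replicate 1 and 7.60 in replicate 2. In the other run of 6, at III 7717370 to 7726591, the 2 broad peaks overlapped both replicates and none of the 4 narrow ones did. Of those 4, 2 overlapped replicate 2 alone and 2 neither. A replicate 2 peak of 2011 bp there covered parts of the narrow peak III 7721898 to 7722458 (−log10 q 3.65 in the combined list) and of the broad peak next to it (16.0).

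The run with most closely spaced narrow peaks was also followed on each other chromosome. On II, IV and X, where 4, 2 and 3 runs tied for most, the tied run with the strongest peak was taken. On chromosome I the run had 4 peaks from 9094048 to 9098352, with combined −log10 q of 4.93, 7.13, 5.04 and 20.5, and only the last overlapped both replicates. On II the run taken had 5 peaks from 2971223 to 2978131, with values of 16.6, 38.6, 4.24, 7.82 and 3.61, and the second, a broad peak, overlapped both. On IV the 4 peaks from 2599633 to 2604801 had values of 18.0, 4.41, 39.5 and 9.33, and the first and the third overlapped both replicates while the others overlapped neither. On V the 5 peaks from 11817432 to 11824900 had values of 4.12, 4.62, 5.80, 17.3 and 25.2, and the last 2 overlapped both replicates while the first 3 overlapped neither. On X the run taken had 3 peaks, from 2597937 to 2600718, with values of 4.26, 8.35 and 3.57, and the middle one overlapped both replicates. Other tied runs were weaker and more even. The run at II 9117570 to 9121159 had values of 3.60 to 6.02 and the run at X 17626363 to 17631973 values of 4.61 to 5.73, and no peak of either overlapped both replicates. A peak found in both was present in 2 of the 4 tied runs on II, both on IV and 1 of 3 on X.

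The 10 strongest closely spaced narrow peaks were all found in both replicates, and each had a weaker nearest neighbour. The strongest, X 11093665 to 11094499, had −log10 q of 128.8 in the combined list, 70.4 in replicate 1 and 103.7 in replicate 2. Its neighbour 840 bp away, X 11095340 to 11095782, had 9.70 in the combined list and was found in replicate 2 alone, at 7.10. The second, IV 4749588 to 4750397, had 81.8, 49.9 and 64.2 in the combined list and replicates 1 and 2, beside a broad peak at 30.3 in the combined list. The third, V 1151098 to 1152515, had 66.2, 29.2 and 31.6, beside a broad peak of 3662 bp at 35.2 in the combined list.

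Chromosome III, with 27.4% of the closely spaced narrow peaks and 24.0% of all combined peaks, had 6 of the 10. The strongest of these, III 7498199 to 7498850, had −log10 q of 63.7, 30.3 and 38.8 in the combined list and replicates 1 and 2, and its neighbour 483 bp away had 20.2, 7.37 and 12.9. The others on III were 12904740 to 12905618, 1080476 to 1080994, 1937977 to 1938983, 1618829 to 1619442 and 3862815 to 3863765, with 50.2 to 59.5 in the combined list. The run of III 1618829 to 1619442 also held a stronger, broad peak, III 1615990 to 1617635, at 94.2 in the combined list. The remaining peak, IV 17277868 to 17279200, had 60.9 in the combined list, 33.4 in replicate 1 and 40.9 in replicate 2. Of the 10 nearest neighbours, which had a combined −log10 q of 4.08 to 35.2 (median 12.2), 5 were in both replicates and 2 in neither.

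Unequal strength was common among the pairs but not general. The stronger peak of a pair had a median of 1.88 times the −log10 q of the weaker (quartiles 1.29 and 3.44, highest 54.1), and the ratio was over 2 in 185 of 418 pairs (44.3%). Its median was 1.97 at gaps of 200 to 299 bp, 2.05 at 300 to 499 bp, 1.80 at 500 to 699 bp and 1.73 at 700 to 1000 bp.

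The pairs were then followed into each replicate list, to see whether both peaks were called there and whether they stayed apart. A pair counted as spanned where 1 replicate peak overlapped each of its peaks by at least 1 bp. In replicate 1 both peaks were found as separate peaks in 85 of 418 pairs (20.3%, 95% Wilson interval 16.8 to 24.5%), 1 replicate peak spanned both in 5 (1.20%), only 1 of the pair was found in 182 (43.5%) and neither in 146 (34.9%). In replicate 2 the numbers were 128 separate (30.6%, interval 26.4 to 35.2%), 15 spanned (3.59%), 190 with only 1 found (45.5%) and 85 with neither (20.3%). Over both replicates 19 pairs (4.55%, interval 2.93 to 6.99%) were spanned by 1 peak in at least 1 of them, and 142 (33.97%) were separate in at least 1. The spanned share was 1.91% where the replicate peak had to cover at least 50% of each peak. Both replicates kept 71 pairs separate, both spanned 1 pair, and 73 pairs had no peak in either. The intervals cover counting of pairs and not differences between cultures, and pairs of 1 run share peaks.

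**Figure D3:**
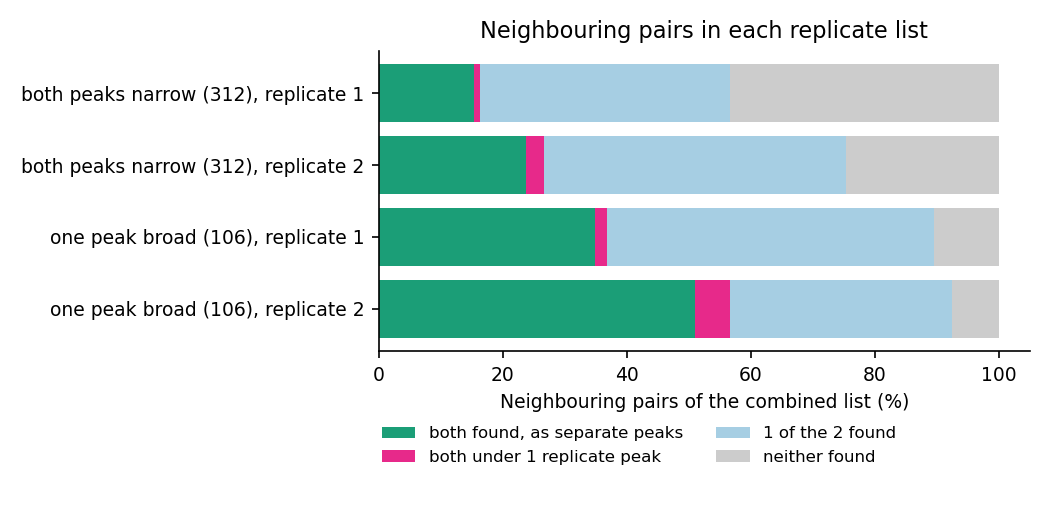
State of each neighbouring pair of the combined list in replicates 1 and 2, as a percentage of pairs, for 312 pairs of narrow peaks and 106 pairs in which 1 peak was broad. Pairs found as separate peaks (green) outnumber pairs spanned by 1 replicate peak (pink) in each row, and in 3 of the 4 rows most pairs had a single peak found or none.

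Where a single peak of a pair was found in a replicate, it was usually the stronger one of the combined list, in 169 of 182 pairs (92.9%) in replicate 1 and in 170 of 190 (89.5%) in replicate 2. Spanning by 1 replicate peak was concentrated at the smallest gaps. Only a replicate peak wider than the gap can touch both peaks, so this order was partly fixed by peak width. Spanning was seen in 15 of 99 pairs with gaps of 200 to 299 bp (15.2%), in 2 of 114 at 300 to 499 bp, in 2 of 92 at 500 to 699 bp and in 0 of 113 at 700 to 1000 bp. The share of pairs kept separate in at least 1 replicate was 30.3% at 200 to 299 bp and 36.3% at 700 to 1000 bp.

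In the 71 pairs that both replicates kept separate, gaps were wider in the replicates than in the combined list, whose gaps had chosen the pairs. Replicate peaks were also the narrower ones in general. For closely spaced narrow peaks found in both replicates, median widths were 810 bp in the combined list and 571 and 642 bp in replicates 1 and 2. For narrow peaks farther than 10 kb they were 546, 426 and 437 bp. The median gap was 512 bp in the combined list, 944 bp in replicate 1 and 773 bp in replicate 2, and it exceeded that of the combined list in 67 pairs in replicate 1 and 62 in replicate 2. The gaps of the replicates differed from each other by a median of 163 bp, with an upper quartile of 381 bp. They were over 1000 bp in 31 pairs in replicate 1 and in 19 in replicate 2, so that these pairs were no longer close by the limit used here.

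Applied to each replicate list alone, the same limits gave 150 closely spaced narrow peaks of 1494 (10.0%) in replicate 1 and 271 of 1997 (13.6%) in replicate 2, fewer than in the longer combined list. Of the 244 closely spaced combined peaks found in replicate 1, 82 (33.6%) overlapped a peak that was closely spaced and narrow there too, and of the 338 found in replicate 2, 155 did (45.9%). In all 3 lists 61 of the 649 (9.40%) were closely spaced. Division also went the other way. Of 92 close pairs of replicate 1, 38 (41.3%) had both peaks on a single combined peak, as had 60 of 169 close pairs of replicate 2 (35.5%).

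Closely spaced narrow peaks overlapped the replicate lists about as often as peaks farther than 10 kb from any other. Of the 649, 213 (32.8%, interval 29.3 to 36.5%) overlapped a peak by at least 1 bp in both replicates, against 35.7% of all combined peaks. Of the 1115 peaks farther than 10 kb, of any width, 397 did (35.6%, interval 32.8 to 38.5%), and of their 1076 narrow ones 369 did (34.3%, interval 31.5 to 37.2%). Replicate 1 was overlapped by 244 of the 649 (37.6%), against 40.9% of all combined peaks, and replicate 2 by 338 (52.1%), against 53.9%. Neither was overlapped by 280 (43.1%, interval 39.4 to 46.98%), against 40.9% of all combined peaks and 42.8% of the peaks farther than 10 kb.

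Overlap followed the strength of the combined peak in both groups. With the combined list divided by q into 4 parts of about equal size, 137 of 143 closely spaced narrow peaks in the strongest part (95.8%, interval 91.1 to 98.1%) overlapped both replicates, against 95.1% of narrow peaks farther than 10 kb. In the second part the shares were 42.5% (interval 35.1 to 50.2%) and 47.4% (41.8 to 53.2%), and in the third 4.97% and 5.68%. In the weakest part 0 of 185 did, which allows a share of up to 1.62% by the limit of 3 counts, against 2 of 295 (0.678%). The intervals of the groups overlapped in each part.

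**Figure D4:**
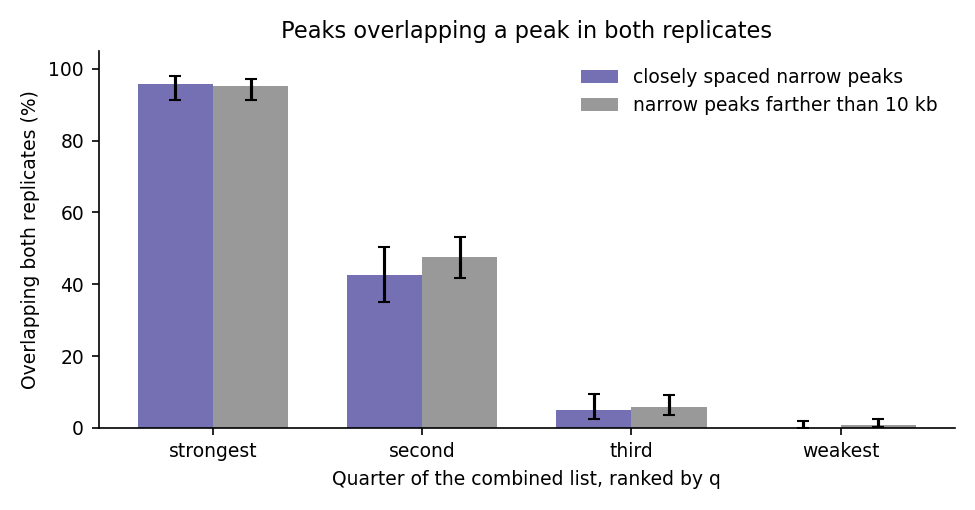
Percentage of peaks that overlap a peak in both replicates, for each of 4 parts of the combined list ranked by q, for closely spaced narrow peaks and narrow peaks farther than 10 kb from any other. Bars are shares and lines are 95% Wilson intervals, which overlap between the groups in every part.

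Strength itself was similar. The median −log10 q of closely spaced narrow peaks was 6.56 (quartiles 4.48 and 11.1), against 6.72 (4.55 and 11.1) for narrow peaks farther than 10 kb. They made up 21.4, 19.2, 18.8 and 21.3% of the narrow peaks from the strongest to the weakest part of the list. Of the 100 strongest combined peaks 10 were closely spaced and narrow, and of the 500 strongest 85 were, against 18.5% of the whole list. The width limit enters these counts, so 18.5% is not a like measure for them. Narrow peaks of any spacing were 92.1% of the list, but 48 of the 100 strongest and 340 of the 500 strongest. Narrow peaks farther than 10 kb were 30.7% of the list, 19 of the 100 strongest and 108 of the 500 strongest.

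Closely spaced peaks were the wider ones, in a measure that the choice had used. Their median width was 612 bp (quartiles 426 and 893 bp), against 439 bp (344 and 620 bp) for narrow peaks farther than 10 kb. They were the wider group in each of the 4 parts ranked by q, with medians of 890, 700, 524 and 443 bp from strongest to weakest, against 611, 454, 414 and 357 bp for narrow peaks farther than 10 kb. Closely spaced peaks made up 19.5% of narrow peaks under 300 bp, 12.1% of those of 300 to 499 bp, 21.7% of those of 500 to 749 bp, 27.4% of those of 750 to 999 bp and 39.4% of those of 1000 to 1499 bp. A wider peak leaves less room to the next, so gap and width are not separate measures.

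Within classes of width, the share overlapping both replicates was lower for closely spaced narrow peaks than for those farther than 10 kb in 4 of 5 classes. It was 2.27% against 4.79% under 300 bp and 22.5% against 29.2% at 300 to 499 bp, with overlapping intervals. Among peaks of 500 to 749 bp the median −log10 q of the closely spaced ones was 6.92, against 8.68 for peaks farther than 10 kb, and 33.0% of 179 (interval 26.5 to 40.1%) overlapped both replicates, against 48.4% of 250 (42.3 to 54.6%). Among peaks of 750 to 999 bp the shares were 35.6% of 104 and 50.9% of 110, with overlapping intervals. From 1000 to 1499 bp the order was the other way, at 63.8% of 127 (interval 55.1 to 71.6%) and 57.8% of 64 (45.6 to 69.1%), with median −log10 q of 13.8 and 9.28. These differences were not tested.

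Among the 213 closely spaced peaks found in both replicates, the median −log10 q was 6.76 in replicate 1 and 9.27 in replicate 2, and replicate 2 was the higher in 158 (74.2%). In the 369 narrow peaks farther than 10 kb and found in both it was higher in 71.5%, with medians of 6.55 and 7.85. Spearman's rho between the replicate values across peaks was 0.74 in the closely spaced group and 0.75 in the distant group, as a description, since peaks of 1 list share a library and depth. Edges were placed less alike. Starts differed between replicates by a median of 84 bp and ends by 68 bp, against 38 bp for each in narrow peaks farther than 10 kb, which were also narrower.

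The closely spaced narrow peaks that were strongest in their run were set beside the others, pooled over all runs. The split used the combined q, which overlap with the replicates also followed among narrow peaks farther than 10 kb. The 251 closely spaced narrow peaks that were the strongest of their run had a median −log10 q of 10.05, and 54.6% overlapped both replicates (interval 48.4 to 60.6%). The other 398 had a median of 5.10, and 19.1% did (interval 15.5 to 23.2%). In 52 of 326 runs (15.95%) every peak overlapped both replicates, in 50 (15.3%) no peak overlapped either, and 154 (47.2%) held peaks found in a replicate beside peaks found in none. Of the 136 closely spaced narrow peaks in runs with a broad peak 37.5% (interval 29.8 to 45.9%) overlapped both replicates. Of the 513 in runs of narrow peaks alone 31.6% did (27.7 to 35.7%), against 35.7% of all combined peaks. The 136 were also stronger and wider, with a median −log10 q of 7.47 against 6.22 and a median width of 781 against 566 bp.

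The strongest closely spaced peaks found in neither replicate were of moderate strength. They were I 6579181 to 6580158 (−log10 q 9.87, rank 1179 of the combined list), IV 2603562 to 2604801 (9.33), IV 5562684 to 5563890 (8.96) and V 13566548 to 13567530 (8.75). Their widths of 978 to 1240 bp lay above the group's median.

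All 6 chromosomes had closely spaced narrow peaks, and III had the most. Chromosome III held 178 (27.4%, against 24.0% of all combined peaks and 13.8% of the analysed length), IV held 142 (21.9%), I held 110 (16.9%), V held 101 (15.6%), II held 69 (10.6%) and X held 49 (7.55%). Per Mb this came to 12.9 on III, 8.13 on IV, 7.30 on I, 4.84 on V, 4.52 on II and 2.78 on X. Peaks farther than 10 kb came in similar numbers, with 170 to 193 on each chromosome.

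The share of narrow peaks that were closely spaced is given beside the density of combined peaks over each whole chromosome. That share was 24.7% on IV (interval 21.3 to 28.3%) and 22.8% on III (19.96 to 25.8%). On I it was 21.5% (18.1 to 25.2%), and the intervals of IV, III and I overlapped. Chromosome III had 61.1 combined peaks per Mb, and IV and I had 35.6 and 36.4. The closely spaced share was 14.2% on II (interval 11.4 to 17.5%), where the density of 34.8 per Mb was near that of I and IV. On V it was 19.96% and on X 13.5%, with the lowest densities of 26.3 and 23.3 per Mb. Peak length and spacing both enter these shares, and no test was made.

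Closely spaced peaks on X were the widest, with a median of 835 bp against 541.5 to 647.5 bp on the autosomes. Peaks farther than 10 kb were widest on X too, with a median of 597 bp against 374 to 463 bp. Chromosome II had the lowest median −log10 q, 5.67, and III the highest, 7.05. On chromosome I 20.9% of the closely spaced peaks (interval 14.4 to 29.4%) overlapped both replicates, as did 23.8% of the peaks farther than 10 kb there (18.3 to 30.4%). On III the shares were 38.2% (interval 31.4 to 45.5%) and 34.1% (27.6 to 41.1%), and on II 26.1% (17.2 to 37.5%) and 38.8% (31.8 to 46.3%). On IV, V and X the closely spaced peaks overlapped both replicates in 37.3, 34.7 and 32.7% of cases, and the peaks farther than 10 kb in 41.1, 34.9 and 40.9%. On III alone was the share higher for closely spaced peaks, it was nearly equal on V, and the intervals of the groups overlapped on every chromosome. The peaks farther than 10 kb were of any width here, whereas the closely spaced ones were narrow by choice. Of all combined peaks 27.7% overlapped both replicates on I, 35.6% on II, 37.2% on III, 38.7% on IV, 36.2% on V and 38.0% on X.

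Over the 5 autosomes, 254 of 600 closely spaced narrow peaks (42.3%, interval 38.4 to 46.3%) lay in the arms, taken as the outer 25% at each end of the analysed length. This was near the 44.1% of all combined autosomal peaks and the 44.4% of all narrow ones. Among peaks farther than 10 kb 49.2% lay there (interval 46.0 to 52.5%), and among narrow peaks with a gap between these limits 42.2% (39.6 to 44.9%). Chromosome V had the lowest share, 28 of 101 (27.7%, interval 19.9 to 37.1%), where 33.8% of all combined peaks were in arms. On III 42.1% lay in arms, against 45.8% of all combined peaks, with 49 in the left arm and 26 in the right. On IV 44.4% lay in arms, against 46.3% of all combined peaks there. The share was above that of all combined peaks on I (49.1 against 46.9%) and II (49.3 against 46.3%), and on X, with 32 of 49 in arms (65.3%, interval 51.3 to 77.1%) against 52.9%.

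The share of narrow peaks that were closely spaced was not ordered alike in the parts of each chromosome. On V it was 21.6% in the centre, 14.5% in the left arm and 18.5% in the right, and on III it was 25.4% in the left arm, 24.4% in the centre and 15.6% in the right arm. On X it was 22.2% in the left arm, 10.1% in the centre and 12.5% in the right arm. The right arm had the highest share on I, at 24.4% against 20.9% in the centre, and on II, at 15.7% against 13.7%. The centre had the highest on IV, at 25.6%, against 23.98% in the left arm. Some parts held few closely spaced narrow peaks, such as 11 in the left arm of V, 12 in the left arm of II and 14 in the right arm of X. No intervals were computed for the parts, so these orders cannot be told from counting variation.

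**Figure D5:**
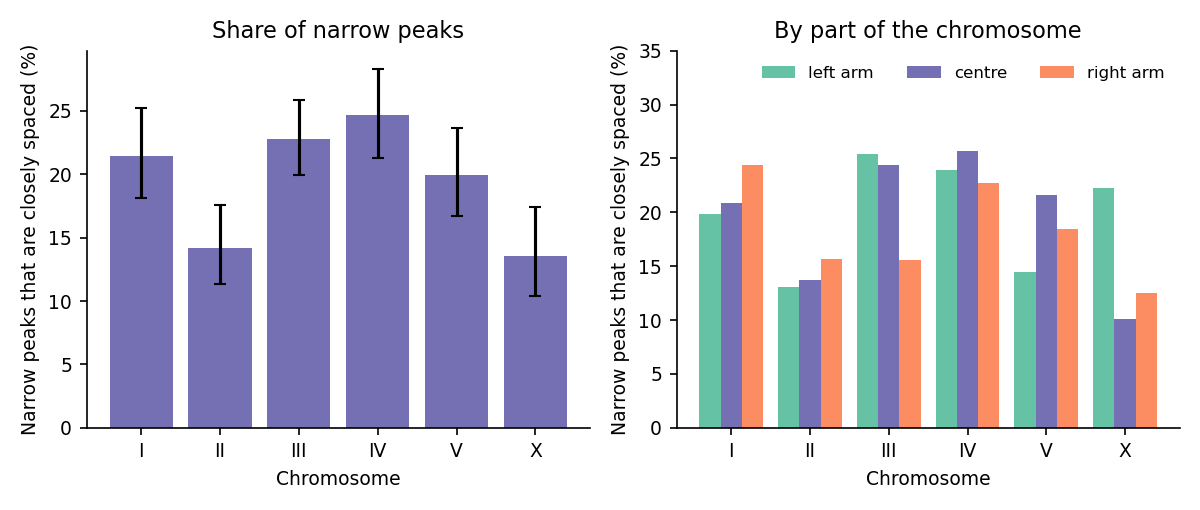
Percentage of narrow peaks that were closely spaced, by chromosome with 95% Wilson intervals (left) and by left arm, centre and right arm of each chromosome (right). Chromosomes I, III and IV have 21.5 to 24.7%, II and X have 14.2 and 13.5%, and X has its highest share in the left arm.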

How the data were processed

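The files were peak lists of ChIP replicates 1 and 2 and a combined list of the series. Per the file headers, positions are in WormBase WS180, and the records name PeakSeq as caller. Each peak has a deposited q-value, computed by the authors from ChIP and control reads. The aligner, read filters, q cut-off, caller version and way of combining are not given in any source used, and depth is unknown. From the files, widths, gaps, runs, overlaps of at least 1 bp and −log10 q were computed. Groups came from the sample titles, since the description fields of ChIP and input samples appear exchanged. The last peak end over all lists stood in for each chromosome's length. Shares carry 95% Wilson intervals, which cover counting alone.

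No statistical test was made, since the rule used the same data. The peaks, groups and settings were chosen with earlier results of these data known. Peaks named are the 3 runs with most peaks, the run with most closely spaced narrow peaks on each chromosome (ties in both by the strongest peak), the 10 strongest, the 4 strongest in neither replicate, the 3 on each side of a limit and the 3 closest pairs. Genes and sequences were not assigned, because no genome or annotation of WS180 was used. The procedures were tested on simulated lists. Alternatives changed the gap, width, distance, overlap, list and arm limits. Values were computed in Python 3.11.15 with pandas 2.3.3, numpy 2.4.6 and scipy 1.17.1, and drawn with matplotlib 3.10.9.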

Additional observations from a re-analysis of the deposited data

How the results depend on the processing

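Of 48 alternatives to 7 results, 21 left the value within 1.5 times (counts) or within the 95% interval of the value reported, and 27 did not. The number of closely spaced narrow peaks, 649, was 339 with gaps of 500 bp or less and 1079 with gaps of 2000 bp or less. It was 150 and 271 in the lists of replicates 1 and 2. The limits were also applied anew to a shortened list, the 1752 combined peaks up to the median q. Gaps were measured again there, which gave 177 closely spaced narrow peaks. These are not the part of the 649 up to the median q. The share overlapping both replicates, 32.8%, was 26.2% with a reciprocal overlap of 50% and 25.9% with midpoints within 200 bp. The same share was 25.3% with widths below 1000 bp, 39.5% with no width limit and 68.4% for the 177 peaks of the shortened list. It was 54.6% for the 251 closely spaced narrow peaks that were strongest in their run, an alternative chosen after seeing the data. For peaks farther than 10 kb, at 35.6%, it was 31.9% with reciprocal overlap and 31.7% with midpoints. The share was 68.9% for the 906 peaks farther than 10 kb from any other in the shortened list. Against 1 replicate alone, the shares were 37.6 to 52.1% of closely spaced and 40.5 to 52.3% of distant peaks. The arm share, 42.3%, was 59.0% with wider arms that hold 66.7% of the length, and 51.1% and 35.7% in the lists of replicates 1 and 2, on opposite sides of 50%. The chromosome III share, 27.4%, was 35.3% and 31.0% in those lists. The median −log10 q, 6.56, was 5.72 below 1000 bp and 7.70 with no width limit. Pairs spanned by 1 replicate peak, 4.55%, were 1.20 to 3.59% with 1 replicate alone and 1.91% where that peak had to cover at least 50% of each peak. The cause of these differences was not tested. No paired analysis was possible because no test was made and input samples had no values in this work. Since depth is unknown, peak numbers and q cannot be set against it.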

Other observations

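The closely spaced narrow peaks were also counted in bins of 100 kb. Each was chosen for lying close to another peak, so some gathering in the same bins was fixed by the choice. The spread over bins was not compared with that of all narrow peaks, so the counts cannot show gathering beyond the choice. Of 1003 bins of 100 kb, 266 (26.5%) held at least 1 closely spaced narrow peak, and 84 bins with 3 or more held 340 of the 649 (52.4%). The densest was III 1900001 to 2000000, with 13 closely spaced narrow peaks among 20 combined peaks, followed by III 7100001 to 7200000 (8 of 16) and V 10800001 to 10900000 (8 of 14). Chromosome III, with 27.4% of the closely spaced narrow peaks and 24.0% of all combined peaks, had 8 of the 18 bins with 5 or more. The first of these bins holds the run of 8 peaks described above and, 3882 bp farther on, the run III 1936532 to 1940202, whose 3 narrow peaks all overlapped both replicates, with −log10 q from 14.6 to 52.4. These bins were singled out after their values were seen. The native lin-13 and unc-119 genes lie on chromosome III in C. elegans, and extra copies of them in the transgene were not located, so their part in the peaks there was not tested.

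A few closely spaced peaks were very short, as were a few peaks of the whole list. Of the 649, 12 were under 100 bp, against 53 of all 3503 combined peaks and 15 of the 1115 farther than 10 kb. The 12 had −log10 q of 3.57 to 5.43, and 9 of them overlapped neither replicate. Among all narrow peaks, 60.1% overlapped neither in the third of the 4 parts ranked by q and 88.6% in the weakest. The smallest was a single base, II 12036904, with a gap of 238 bp and −log10 q of 3.57. Narrow peaks farther than 10 kb also had a smallest width of 1 bp.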
